A study of Homo sapiens with 6 samples.

Results

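The genes described here are 10 heat shock chaperones and co-chaperones, 4 of them mitochondrial (HSPE1, HSPD1, HSPA9 and TRAP1) and 6 cytosolic (DNAJB1, DNAJA1, HSPA8, HSPH1, HSP90AA1 and BAG3). They were picked by symbol from 18417 measured genes, taking for each gene the probe set with the highest mean over the 6 arrays, and all 10 were found. The choice used measured values, since HSPE1 and DNAJB1 were known to be lower after NRF3 siRNA. The siRNA differences below are therefore a description and support nothing.

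The data are 6 Affymetrix arrays of cultured human cells in 6 groups with 1 array each, so no difference has a replicate check and none was tested. HCT116, a colon cancer line, and HCT116-p53KO, its derivative lacking p53, each received control siRNA or NRF3 siRNA by transient transfection, and RNA was taken after 48 h. H1299, a non-small cell lung carcinoma line, was made to express GFP or NRF3 stably from a plasmid, under G-418 selection. NRF3 is a transcription factor of the CNC family and is encoded by NFE2L3. Whether the p53 knockout or the stable lines were single clones was not given in the sources used here.

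Chaperones bind proteins that are not yet folded or have lost their fold. HSP70 proteins work in cycles of ATP hydrolysis that J-domain co-chaperones start and nucleotide exchange factors complete, and HSP90 proteins take over later steps for kinases, receptors and other clients. In mitochondria, imported chains pass from the mitochondrial HSP70 to the barrel-shaped chaperonin HSP60, which HSP10 closes like a lid. Many of these genes are induced by heat shock factor HSF1, which binds inverted repeats of short GAA blocks called heat shock elements.

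HSPE1 and HSPD1, which encode HSP10 and HSP60, stand head to head in the genome. Their RefSeq starts (GRCh38.p14) are 105 bases apart, and the 104 bases between them are shown because both genes are read outward from this stretch (chr2:197500275-197500378, plus strand).

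between HSPD1 and HSPE1: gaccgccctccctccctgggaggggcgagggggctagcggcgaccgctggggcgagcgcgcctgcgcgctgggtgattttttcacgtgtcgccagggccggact

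Promoter windows of 300 bases, 250 before and 50 after each RefSeq start, were found for 10 members, with 14 starts in all. A heat shock element of 3 units, GAANNTTCNNGAA or its reverse complement TTCNNGAANNTTC, was in the windows of 4 of 10 members, against 0.608% of 27305 genes with a window. These members were HSPD1, DNAJA1, HSPA8 and HSP90AA1. In the lines below, each of 30 bases around a match, capitals mark the heat shock element. In HSPD1 the capitals cover 2 overlapping matches, and the DNAJA1 match lies just after the start. A further HSPA8 match, 230 bases before the start, is not shown. DNAJB1 held only the form of 2 units, GAANNTTC or TTCNNGAA, which counts every 3-unit element too and was found in 6 of 10 members and 16.2% of genes. DNAJB1 is shown because it stood out in the arrays.

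HSPD1, inner start, chr2:197500061-197500090, minus strand: gcattTTCTGGAAAGTTCTGGAAccgagcg
DNAJA1, chr9:33025270-33025299, plus strand: cgggcgGAACTTTCCAGAAcgctcggtgag
HSPA8, chr11:123062168-123062197, minus strand: ggccccTTCTGGAAGGTTCtaagatagggt
HSP90AA1, inner start, chr14:102087109-102087138, minus strand: gggttcTTCCGGAAGGTTCgggaggcttct
DNAJB1, second start, chr19:14518451-14518480, minus strand: ggggcgGAAGGTTCtggagggggctggcgg
DNAJB1, second start, chr19:14518421-14518450, minus strand: gctctgGAAGCTTCcgccggacgggtatat

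The overlapping matches in HSPD1 begin 189 bases inside the gene from its outer start. That is 294 bases from the start of HSPE1, beyond the reach of the HSPE1 window. No exact match to either form of the heat shock element was found in the windows of HSPE1, TRAP1, HSPH1 and BAG3. Elements with mismatched letters or outside the windows were not searched. The core of the antioxidant response element, to which CNC factors bind with small MAF proteins, was searched as TGACNNNGC and, on the other strand, GCNNNGTCA. It was in the window of TRAP1 alone among the members, against 16.1% of all genes with a window. These matches describe letters only, and no binding was measured.

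As a check of the labels, NFE2L3 was 5.11-fold lower with NRF3 siRNA in HCT116, 2.94-fold lower in HCT116-p53KO and 4.06-fold higher with the NRF3 plasmid in H1299. Median intensities (RMA log2) ran from 6.95 to 7.002 in the 2 HCT116 lines and from 6.05 to 6.08 in H1299, so levels are not compared across these sets except as a percentile among the genes of the same array. The epithelial markers EPCAM and CDH1 were at 10.91 to 11.42 and 9.00 to 10.09 on the HCT116-family arrays and the intestinal factor CDX2 at 8.39 to 8.69, while CDH17, KRT20 and VIL1 stayed under 6. In H1299 none of 6 lung epithelial markers reached 6, while 3 or 4 did on the HCT116-family arrays, where median intensities were higher. VIM, a mesenchymal filament, was at 12.08 and 12.45 in H1299, but SPARC of the same list was at 5.29 and 5.41. On every array 4 of 5 mesenchymal markers reached 6. CDX2 was at 6.62 and 6.73 in H1299. Of 4 measured leukocyte markers, PTPRC, CD3E and LYZ were under 6 on every array, while CD68, a lysosomal protein, was at 8.09 to 8.67 in the HCT116 lines and at 9.99 and 10.53 in H1299.

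All 10 members were well expressed, with the lowest value, 8.20, for BAG3 on the H1299 GFP array. HSPA8, the constitutive cytosolic HSP70, was at 14.01 to 14.17 in the HCT116 lines and at 13.38 and 13.55 in H1299, at the very top of each array. HSPE1 held the lowest percentile of the members on all 4 HCT116-family arrays, 84.4 and 84.7 on the control arrays of HCT116 and HCT116-p53KO and 66.7 and 69.4 on the NRF3 siRNA arrays. In H1299 its percentile was 86.0 with GFP and 83.0 with NRF3.

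**Figure D1:**
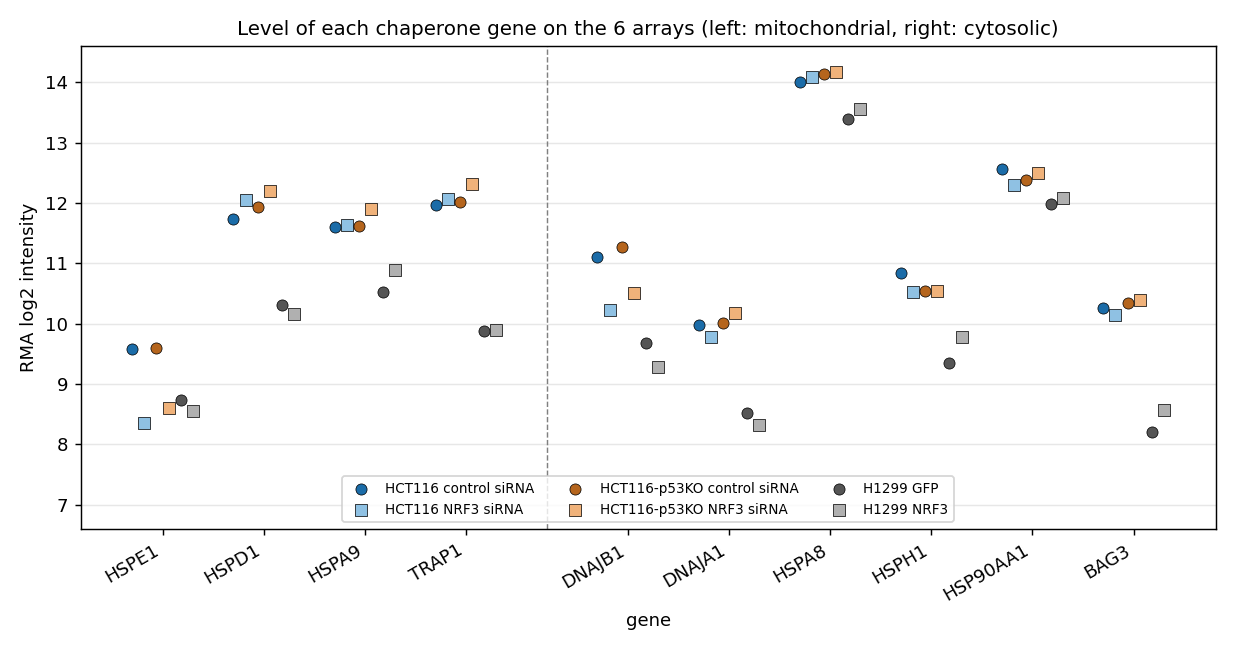
RMA log2 intensity (vertical axis) of the 10 genes on each of the 6 arrays, 1 point per array, circles for control siRNA or GFP and squares for NRF3 siRNA or NRF3. HSPE1 and DNAJB1 are the genes whose NRF3 siRNA squares lie clearly under both control circles in the HCT116 lines. H1299 points belong to arrays with lower intensities throughout and are read only against each other.

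HSPE1, the mitochondrial co-chaperonin HSP10, was the member that differed most after NRF3 siRNA. HCT116 gave 9.58 on the control array and 8.35 on the NRF3 siRNA array, and HCT116-p53KO gave 9.60 and 8.60. Both NRF3 siRNA arrays were lower than both control arrays, and the control arrays of the lines nearly coincided. The differences were -1.22 (2.33-fold lower) and -0.999 (1.998-fold lower), with 53 of 14034 expressed genes lower still in HCT116 and 61 of 13680 in HCT116-p53KO. With GFP and NRF3 in H1299 the levels were 8.74 and 8.55, a difference of -0.19. HSPE1 was not higher with NRF3 in H1299, where 24.4% of expressed genes were lower by more. RefSeq names 28 pseudogenes after HSPE1 and a read-through gene, HSPE1-MOB4, that overlaps it, and signal from these cannot be told apart from that of HSPE1.

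HSPD1, the chaperonin HSP60 that HSP10 caps, did not follow its partner. On the control and NRF3 siRNA arrays it was at 11.73 and 12.05 in HCT116, and at 11.93 and 12.19 in HCT116-p53KO. Here both NRF3 siRNA arrays were above both control arrays, by 0.31 and 0.26 within the lines. The pair of head-to-head genes therefore lay on opposite sides of their controls in each HCT116 line. In H1299 HSPD1 was at 10.31 with GFP and 10.16 with NRF3, a difference of -0.16 that is close to that of HSPE1. RefSeq names 22 pseudogenes after HSPD1.

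The other mitochondrial members differed little. HSPA9, the mitochondrial HSP70 (mortalin), was at 11.60 and 11.63 with control and NRF3 siRNA in HCT116 and at 11.61 and 11.91 in HCT116-p53KO. Only the NRF3 siRNA array of HCT116-p53KO stood above the other 3 arrays, by about the size seen in H1299, where HSPA9 was at 10.52 with GFP and 10.88 with NRF3 (0.36). TRAP1, the mitochondrial HSP90, was at 11.97 and 12.07 in HCT116 and at 12.02 and 12.32 in HCT116-p53KO, again highest on the NRF3 siRNA array of HCT116-p53KO. In H1299 TRAP1 was at 9.87 and 9.89. A second TRAP1 probe set, at 5.14 to 6.64, differed by -0.17 in HCT116-p53KO where the one used differed by 0.30, so its probe sets disagree in direction there.

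DNAJB1, the cytosolic J-domain protein (HSP40) that starts the ATPase cycle of HSP70, was the other member clearly lower after siRNA. Its level was 11.10 with control and 10.22 with NRF3 siRNA in HCT116, and 11.27 and 10.51 in HCT116-p53KO. As for HSPE1, both NRF3 siRNA arrays were lower than both control arrays. The differences were -0.88 (1.84-fold lower) and -0.76 (1.69-fold lower), with 245 and 156 expressed genes lower still. In H1299 DNAJB1 was at 9.69 with GFP and 9.27 with NRF3, a difference of -0.41 (1.33-fold lower), the lowest of the members. DNAJB1 was on the lower side in all 3 comparisons. These differ in cell line and in how NRF3 was changed, with 1 array per group, and no cause was tested.

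The remaining J-domain and HSP70 members stayed close to their controls. DNAJA1, another J-domain partner of HSP70, was at 9.97 with control and 9.79 with NRF3 siRNA in HCT116 and at 10.01 and 10.17 in HCT116-p53KO, so its differences had opposite signs (-0.19 and 0.17). In H1299 it was at 8.51 and 8.32. HSPA8 differed after siRNA by 0.07 in HCT116 and 0.03 in HCT116-p53KO, and by 0.17 with NRF3 in H1299. Over the 7 pairs of arrays that could be compared as deposited, HSPA8 differed by at most 0.17 and HSPE1 by up to 1.24. By this measure HSPA8 varied least and HSPE1 most, but HSPE1 was picked with its siRNA differences known. HSPA8 lay at the very top of each array, and whether this limited its differences was not tested. RefSeq names 20 pseudogenes after HSPA8.

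Of the exchange factors, HSPH1, the HSP110 that releases nucleotide from HSP70, was at 10.84 with control and 10.53 with NRF3 siRNA in HCT116. In HCT116-p53KO it was at 10.54 on both arrays, so the HCT116 control array alone stood higher. BAG3, which links HSP70 to selective autophagy, was at 10.26 and 10.15 in HCT116 and at 10.35 and 10.40 in HCT116-p53KO. In H1299, GFP and NRF3 arrays gave HSPH1 at 9.34 and 9.77 (0.43, or 1.35-fold higher), and BAG3 at 8.20 and 8.58 (a difference of 0.38). These 2 exchange factors were the members with the largest positive differences in H1299.

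HSP90AA1, the stress-inducible cytosolic HSP90, was at 12.55 with control and 12.30 with NRF3 siRNA in HCT116 and at 12.38 and 12.50 in HCT116-p53KO. Its siRNA differences, -0.25 and 0.12, had opposite signs, as those of DNAJA1 and BAG3 did. In H1299 it was at 11.98 and 12.09.

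**Figure D2:**
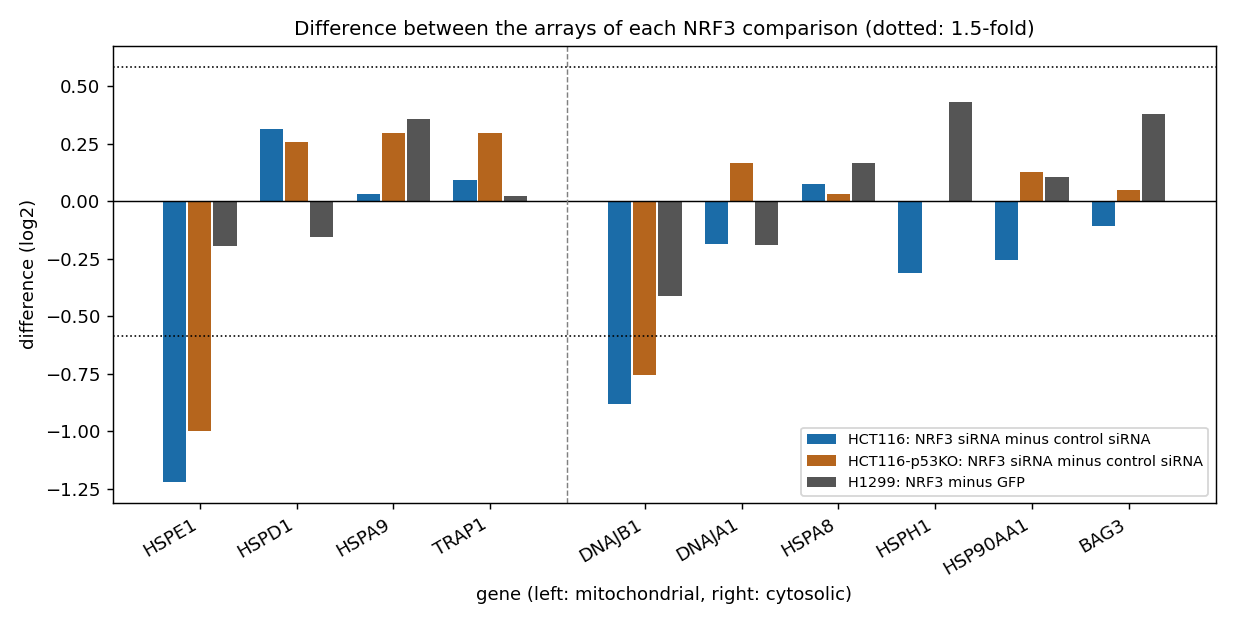
Difference in log2 intensity (vertical axis) between the 2 arrays of each NRF3 comparison for the 10 genes, with dotted lines at 1.5-fold; each bar is 1 pair of arrays and has no error. HSPE1 and DNAJB1 pass the lower line in both HCT116 lines, and no gene passes either line in H1299.

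By size, 2 of 10 members, HSPE1 and DNAJB1, were at least 1.5-fold lower after siRNA in HCT116, where 6.02% of all expressed genes were, and none was 1.5-fold higher (2.71% of all). The same 2 were 1.5-fold lower in HCT116-p53KO (2.38% of all) and none higher (3.63% of all). Since the choice of members used these contrasts, nothing is read from those counts. The median over the 10 members was -0.15 in HCT116 and 0.09 in HCT116-p53KO, against 0.01 and 0.00 over all expressed genes, and the mean of -0.05 in HCT116-p53KO has the opposite sign to its median. Mitochondrial members had medians of 0.06 and 0.28 and means of -0.20 and -0.04, which part in sign because HSPE1 lay far below the other 3. Cytosolic members had medians of -0.22 and 0.04, with 5 of 6 lower in HCT116 and 2 of 6 in HCT116-p53KO.

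The reason given for the choice of members was the siRNA differences, not stable NRF3 expression in H1299. Earlier results of these data were known all the same, and probe sets were picked over all 6 arrays. In H1299 none of 10 was 1.5-fold lower (4.2% of 11304 expressed genes were) and none 1.5-fold higher (4.82%). The members ranged from -0.41 to 0.43, with 6 higher and 4 lower and a median of 0.07 against 0.00 over all expressed genes. The median was -0.07 for the mitochondrial members, whose mean of 0.01 has the other sign, and 0.14 for the cytosolic ones. With 1 array per group these sizes cannot be set against replicate spread.

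Between the HCT116 lines, the members differed little on the control arrays and more evenly on the NRF3 siRNA arrays. With control siRNA, HCT116-p53KO minus HCT116 ran from -0.30 for HSPH1 to 0.20 for HSPD1, with a median of 0.04. With NRF3 siRNA all 10 members were higher in HCT116-p53KO, from 0.01 for HSPH1 to 0.39 for DNAJA1, HSPH1 turning negative under other scalings. Of 14007 expressed genes, 52.8% were higher. Of the 99 expressed genes of the wider chaperone network described below, 83 were higher, with a median of 0.25, so this was not particular to the members. The median of the members was 0.24 against 0.02 over all expressed genes and 0.08 over genes that reached 7, and it was 0.16 with all 6 arrays quantile-normalized again and 0.12 after loess correction for level. HSPH1 was at -0.11 under the first of these, at -0.13 under the second and at -0.01 after median centring, so 9 of 10 members were higher under each of the 3. No member was 1.5-fold apart with control siRNA (3.45% of expressed genes were lower and 0.868% higher) or with NRF3 siRNA (4.75% and 5.6%).

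**Figure D3:**
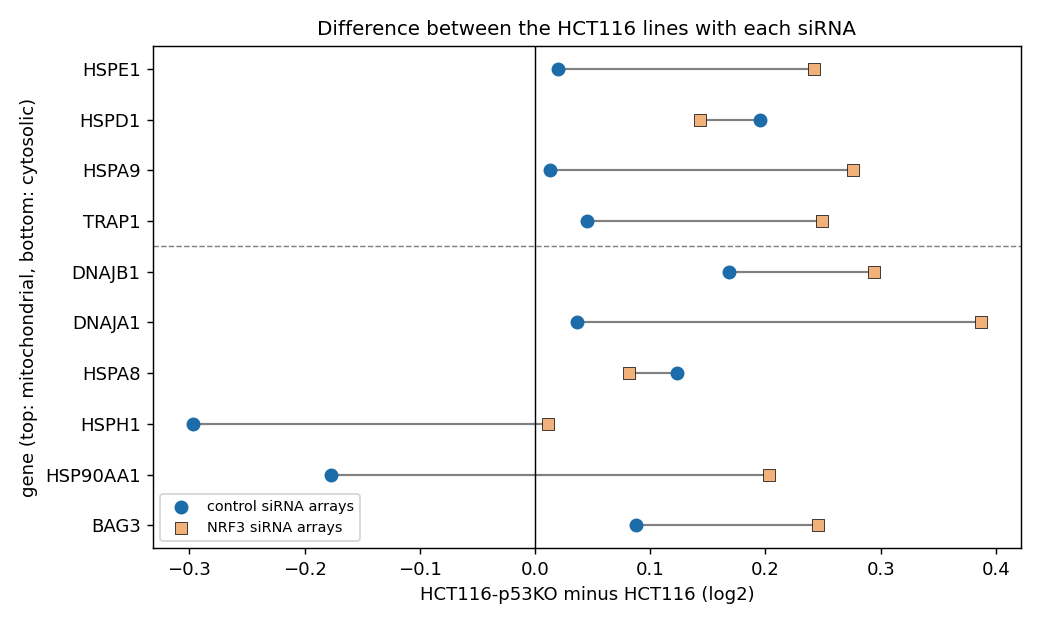
Difference HCT116-p53KO minus HCT116 in log2 intensity (horizontal axis) for each gene, as a circle for the control siRNA arrays and a square for the NRF3 siRNA arrays, joined by a line; each point is 1 pair of arrays. All 10 squares lie right of 0, HSPH1 only at 0.01 and below 0 after further normalization, while the circles of HSPH1 and HSP90AA1 lie left of it.

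The siRNA difference of HCT116 less that of HCT116-p53KO is made from the same 4 arrays. It was below 0 for 8 of 10 members and for 55.2% of 14148 expressed genes, with a median of -0.21 against -0.04. Of the 99 expressed genes of the wider chaperone network, 75 were below 0, with a median of -0.13. Among the members it was lowest for HSP90AA1 (-0.38), DNAJA1 (-0.35) and HSPH1 (-0.31), and above 0 for HSPD1 (0.05) and HSPA8 (0.04). No member reached 1.5-fold in either direction (4.26% of genes lower and 2.61% higher did). For HSPE1 it was -0.22 and for DNAJB1 -0.13, so for both the lines differed by far less than the siRNA arrays did from their controls.

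The rest of the chaperone network was described through 11 lists with 116 genes besides the members, of which 95 to 99 were expressed in each NRF3 comparison. After siRNA, 2 were 1.5-fold higher and 5 lower in HCT116 while the knockout line had 4 and 2. H1299 had 6 and 2, and 3 higher with all 6 arrays quantile-normalized again. Their medians were -0.14, 0.03 and 0.00. Of all expressed genes, 2.71% were 1.5-fold higher and 6.02% lower in HCT116. The shares were 3.63% and 2.38% in HCT116-p53KO, and 4.82% and 4.2% in H1299. The counts of each list below are to be read beside these shares, and none was tested.

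Among mitochondrial chaperones and proteases, 1 of 13 was 1.5-fold higher and none lower in HCT116, 2 and none in HCT116-p53KO and 1 and none in H1299. LONP1, the matrix protease, differed by 0.59 (1.501-fold, only just past the threshold) and 0.86 after siRNA and by 0.06 in H1299. AFG3L2, a subunit of the inner membrane protease, differed by 0.38, 0.63 and 0.62 in the same order. GRPEL1, the exchange factor of HSPA9 (0.10, 0.10 and 0.37), and CLPP, the protease that works with CLPX (0.03, 0.09 and -0.06), were named after their values were seen, as close partners of the members. The list's medians were 0.06, 0.14 and 0.00, and its lowest values after siRNA were -0.34 and -0.20.

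Of the regulators of the mitochondrial stress response, ATF4 was higher in all 3 comparisons (0.74, 0.71 and 0.52). DELE1, which relays mitochondrial stress to the cytosol, was at 0.38 and 0.44 after siRNA and at -1.02 in H1299. TFAM, which packages mitochondrial DNA, was at -0.60, -0.16 and 0.48. In this list 1 of 9 was 1.5-fold higher and 1 lower in HCT116, 1 and none of 9 in HCT116-p53KO, and none and 1 of 10 in H1299.

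Cytosolic folding machines showed their largest differences outside HSP70. TRiC, the cytosolic chaperonin, and prefoldin, which hands it actin and tubulin, had 3 of 14 genes 1.5-fold lower in HCT116, 1 in HCT116-p53KO and none in H1299, where 1 was higher. The TRiC subunit CCT4 was at 11.12 with control and 10.14 with NRF3 siRNA in HCT116 (-0.99), and at 11.29 and 10.48 in HCT116-p53KO (-0.81). The subunit CCT5 was higher in all 3 (0.24, 0.32 and 0.77), and in H1299 CCT4 was higher too (0.42). CCT4 and CCT5 thus lay on opposite sides of their controls only after siRNA, as HSPE1 and HSPD1 did. The prefoldin genes PFDN4 (-0.81 and -0.22) and VBP1 (-0.63 and -0.19) were 1.5-fold lower in HCT116.

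In the list of HSP90 and its co-chaperones, CHORDC1, a zinc-binding HSP90 partner that heat induces, was at 10.76 with control and 9.57 with NRF3 siRNA in HCT116, or -1.18. In HCT116-p53KO it was at 10.83 and 10.55 (-0.28), so its low array was that of HCT116 alone. SUGT1, an HSP90 adaptor, was at -0.28, 0.13 and 0.76. Of 9 measured genes 1 was lower in HCT116, none either way in HCT116-p53KO and 1 higher in H1299. Of the cytosolic HSP70 and HSP110 genes, HSPA4L alone passed 1.5-fold, in HCT116-p53KO (0.74, against -0.02 in HCT116 and 0.33 in H1299).

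The J-domain genes other than the members had none of 12 at 1.5-fold after siRNA in either line. Of all expressed genes, 6.02% were lower and 2.71% higher in HCT116, and 2.38% and 3.63% in HCT116-p53KO. In H1299 3 of 11 were 1.5-fold higher, DNAJC21 (0.74), DNAJC9 (0.61) and DNAJB6 (0.59), against 4.82% of all expressed genes. DNAJC9 and DNAJB6 were close to the threshold of 0.585. DNAJB1 was lower there, at -0.41. Among HSP70 exchange factors and adaptors none of 8 reached 1.5-fold, and BAG1 differed most (0.43, 0.50 and 0.13). Of the small heat shock proteins HSPB8, a partner of BAG3, was at -0.43 and -0.88 after siRNA with levels of 6.27 to 7.33 and was under 6 in H1299. HSPB6 was at 0.05, -0.10 and -0.64.

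Heat-inducible genes that are no members had 1 of 14 lower in HCT116 (CHORDC1), 1 of 14 higher in HCT116-p53KO (HSPA4L) and none of 12 in H1299, with medians of -0.11, 0.04 and 0.01. Heat shock factors and their regulators had none of 7 at 1.5-fold, and SIRT1 differed most (-0.21, -0.14 and 0.35). HSF1 itself, named after its values were seen, was at -0.06, 0.07 and 0.14. Chaperones of the endoplasmic reticulum had none of 14 at 1.5-fold and medians of -0.16, 0.04 and -0.14, and SIL1, the exchange factor of its HSP70, was at 0.44, 0.37 and -0.25. Genes without a probe set of their own, HSPA1A and HSPA1B among them, are not analysed here.

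**Figure D4:**
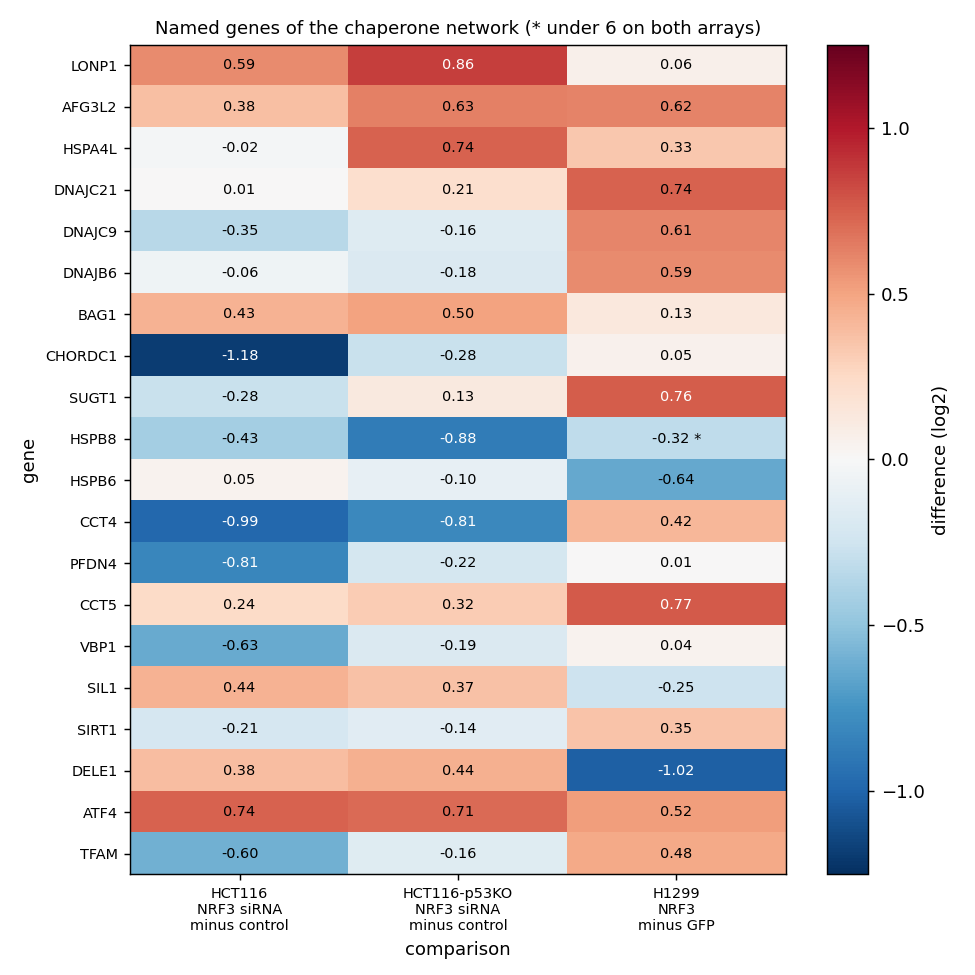
Differences in log2 intensity of the 20 genes of the wider chaperone network named by rule, 1 row per gene and 1 column per NRF3 comparison, red for higher and blue for lower, each cell from 1 pair of arrays. CHORDC1 and CCT4 are lowest in HCT116, and DELE1 is lowest in H1299.

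The genes whose 3 NRF3 differences were nearest to those of HSPE1, by Euclidean distance over 6867 genes at 7 or more on all 6 arrays, were PIKFYVE (distance 0.06), TBC1D13 (0.18) and TMEM54 (0.18). For DNAJB1 they were ZNF385A (0.13), LMLN (0.14) and ITGA5 (0.17). None of these is a chaperone, and 3 differences per gene is a thin basis for likeness.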

How the data were processed

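The authors deposited RMA log2 intensities for 33297 probe sets. Per the submitters' processing notes the software was Affymetrix Expression Console, and per the labels' protocols 100 ng of total RNA was used. The set of arrays normalized at once was not given in the sources used here. Annotation of the platform gave 1 symbol to 19460 probe sets, several to 1754 and none to 12083. Only those with 1 symbol were used, by the probe set of the highest mean.

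Differences of log2 values were taken with Python 3.11.15 and pandas 2.3.3 for genes whose log2 intensity was 6 or above on either array, and counted at 1.5-fold. The counting was tested on simulated differences. The members and lists were chosen with earlier results of these data known. Named genes were the members, NFE2L3, up to 4 genes per list with the largest difference of 1.5-fold or more in an NRF3 comparison (otherwise the largest), and the 3 most alike HSPE1 and DNAJB1. Alternatives were averaging the probe sets of a gene, repeated quantile normalization, loess correction (span 0.4), median centring, no filter or one of 7, 1.25-fold and 2-fold, and means. Promoters are from RefSeq, GRCh38.p14.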

Additional observations from a re-analysis of the deposited data

How the results depend on the processing

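Of 360 values of single members under alternatives, 358 moved by less than 0.22, the SD between the HCT116 lines of a siRNA difference over all expressed genes, and none with a 1.5-fold difference changed sign. Both exceptions were TRAP1 with its probe sets averaged, at 0.06 for siRNA in HCT116-p53KO and 0.05 for the difference between the lines. Many of the 360 values could not move. A change of filter leaves a member's value as it is, and averaging can alter only TRAP1, the 1 member with several probe sets. HSPE1 ranged from -1.23 to -1.15 in HCT116 and from -1.06 to -0.999 in HCT116-p53KO, and DNAJB1 from -0.89 to -0.82 and from -0.80 to -0.76. Medians over the members moved by less than that SD under every alternative. Counts moved only with the size threshold. At 2-fold, 1 member was lower in HCT116 and 0 in HCT116-p53KO. At a difference of 0.32 (log2), 1 was lower and 3 were higher in H1299. At that size 1 was higher in HCT116-p53KO than HCT116 with NRF3 siRNA, and 2 were lower in the difference between the lines. The shares of all expressed genes at these sizes are not given here, so nothing is read from these counts. Pathway genes 1.5-fold higher in H1299 numbered 3 after repeated quantile normalization. No paired analysis was possible because each group has 1 array and the labels carry no replicate numbers. Precision is limited by the number of arrays.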

Other observations

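Outside the rule for named genes, RGS2, a regulator of G protein signalling listed among the heat-inducible genes, was the network gene that differed most between the HCT116 lines, at -1.76 with control siRNA and -1.79 with NRF3 siRNA (HCT116-p53KO minus HCT116). It was chosen after its values were seen.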
